A study of Mus musculus with 2 samples.

Results

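The lysosomal genes described here are 42 genes for soluble hydrolases of the lysosome, the proteins that carry or activate their lipid substrates, proteins of the lysosomal membrane and the transcription factor TFEB, given as a list of gene symbols. All 42 were found by symbol among the 24532 genes of the deposited count table. They were measured in cardiac myofibroblasts, the matrix-producing cells that appear in the injured heart, from C57BL/6 mice (C57BL/6J in the methods of the study), and the cells were sorted as CD45-negative 3 days after myocardial infarction (MI) and grown in serum-containing medium. The cells were transfected with 12.5 nM of a control siRNA (siCtrl) or of an siRNA against *Vgll3* (si*Vgll3*), a gene for a transcriptional cofactor, and RNA was collected 72 h later. Each condition has 1 library, made from poly(A) RNA, so the comparison between them has no replicate check and no p-value is given. The sources used here do not say whether both libraries came from the same cell isolation.

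Reads counted on genes numbered 140815237 with siCtrl and 125789276 with si*Vgll3*. *Vgll3* itself was at 202 TPM with siCtrl and 84.0 TPM with si*Vgll3*, where 41.6% of its siCtrl level was left. All 10 myofibroblast markers listed were detected, among them *Vim* at 5343 and 6541 TPM, *Fn1* at 4977 and 5115 TPM, *Col1a2* at 4585 and 3179 TPM and *Acta2* at 3296 and 3866 TPM. Of the 10, 4 were past a log2 ratio of si*Vgll3* to siCtrl of −0.5 and 2 past 0.5, with *Postn* lowest at −1.22 and *Thy1* highest at 0.72. Over all genes with a mean TPM above 1, these shares were 11.4% and 5.73%. Of 20 leukocyte markers, a cell class that is rich in lysosomes, 12 had 0 reads in both libraries, *Ptprc*, *Adgre1* and *Itgam* included, and 4 had a mean TPM above 1. The TPM listed for leukocyte markers summed to 15.1 TPM with siCtrl and 13.6 TPM with si*Vgll3*.

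Lysosomes are acidic organelles in which proteins, glycans and lipids from endocytosis and autophagy are broken down. Most soluble hydrolases receive a mannose 6-phosphate tag in the Golgi and are carried to the lysosome by receptors for that tag, while a heavily glycosylated membrane shields the cell from them. TFEB and related factors bind short E-box sequences at the promoters of many lysosomal genes, and inherited loss of a single hydrolase often causes a storage disease. In fibroblasts, cathepsins and other lysosomal proteases also take part in the turnover of collagen.

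Levels are given as TPM (a transcript abundance scaled for gene length and sequencing depth), and M is the log2 ratio of the TPM in si*Vgll3* to that in siCtrl. A is log2 of the mean TPM of both libraries, and a gene was counted as lower at M < −0.5 and as higher at M > 0.5, each with A > 0. The values in square brackets are the 95% Clopper-Pearson interval of M from the read counts, which covers counting error only and compares these libraries, not the conditions.

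Most of the lysosomal genes had a somewhat lower TPM in the si*Vgll3* library. Of the 42 genes, 41 had A > 0, and *Ctss* had 0 reads in both libraries. Lower genes numbered 9 of the 41 (22.0%), beside 11.4% of the 11754 genes with A > 0. None was higher, beside 5.73% of all genes. M was below 0 for 37 of the 41, beside 57% of all genes, and its median was −0.24 for the lysosomal genes and −0.05 for all genes. The 9 lower genes were *Ctsd*, *Lgmn*, *Idua*, *Naglu*, *Neu1*, *Arsa*, *Galns*, *Scarb2* and *Tfeb*. *Galns*, at −0.503, lay just inside the threshold, whereas *Ctso* at −0.496 and *Grn* at −0.493 lay just outside it.

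**Figure D1:**
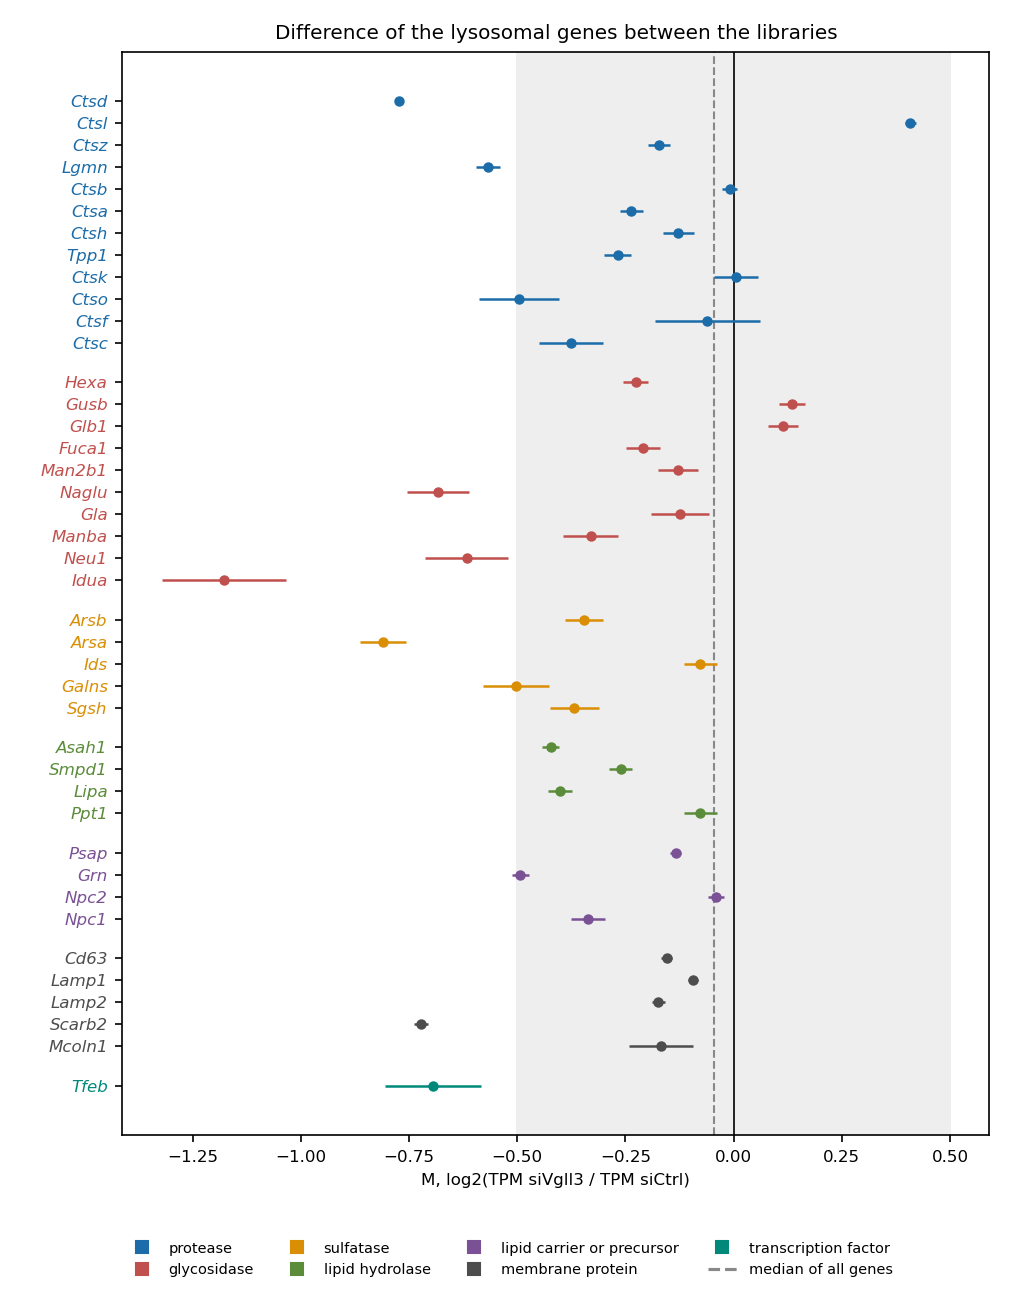
M (x axis, log2 ratio of TPM in siVgll3 to siCtrl) of the 41 lysosomal genes with A > 0, by role; points are 1 library against 1 library, bars are 95% counting intervals and the grey band spans M from −0.5 to 0.5. Idua lies farthest to the left at −1.18, Ctsl farthest to the right at 0.41, and 9 points lie left of the band.

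The counting interval lay wholly below 0 for 35 of the genes and wholly above 0 for 3, *Ctsl*, *Gusb* and *Glb1*, and it held 0 for *Ctsb*, *Ctsf* and *Ctsk*. Over the 11754 genes with A > 0, it lay wholly below 0 for 5386 and wholly above 0 for 3807, and it held 0 for 2561. Reads were plentiful, from 1945 over both libraries for *Idua* to 427967 for *Ctsd*. The share of lower genes depended on the level, since among genes with A > 6 it was 6.29% of 2574 genes and 3 of 24 lysosomal genes. At that level the median M was −0.17 for the lysosomal genes and 0.01 for all genes, and M was below 0 for 20 of the 24 lysosomal genes and 48.4% of all genes.

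**Figure D2:**
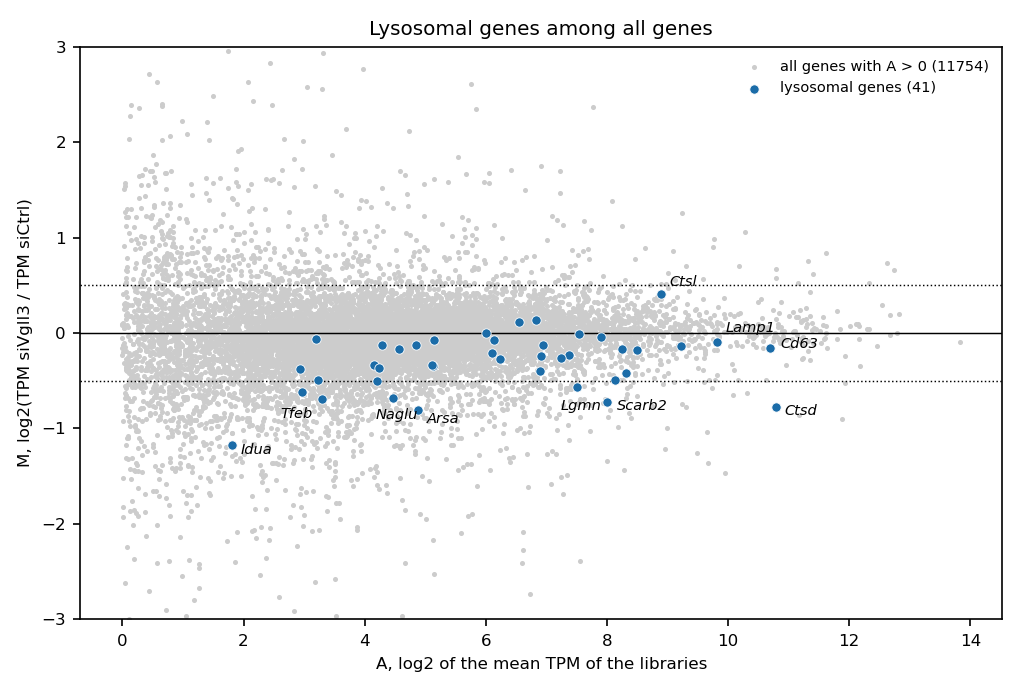
M (y axis, log2 ratio) against A (x axis, log2 of the mean TPM) for the 11754 genes with A > 0 in grey and the 41 lysosomal genes in blue, with dotted lines at M of −0.5 and 0.5; 17 grey genes lie beyond the y axis. The lysosomal genes lie at A from 1.81 (Idua) to 10.8 (Ctsd), with a median A of 6.24 beside 4.32 for all genes, and 37 of the 41 lie below 0.

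The transcripts of the listed genes together took 9899 TPM with siCtrl (0.991% of the total) and 8139 TPM with si*Vgll3* (0.815%). *Ctsd* alone accounted for 52.5% of that difference, and without it the sums were 7674 and 6837 TPM. *Cd63* accounted for 10.1% of the difference and *Scarb2* for 7.10%. *Ctsl* went the other way, with 134 TPM more in si*Vgll3*.

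*Tfeb*, the gene for the factor that drives lysosomal transcription when it enters the nucleus, was at 12.2 TPM with siCtrl and 7.54 TPM with si*Vgll3*, an M of −0.70 [−0.81, −0.58]. The promoters of the lysosomal genes were searched for the E-box CACGTG, which reads the same on both strands, from 250 bases before to 50 bases after each start site of RefSeq. Of the 37 lysosomal genes with such a window, 12 held the box (32.4%), beside 8.09% of 27025 genes of all kinds and 11.99% of the 8998 genes with A > 0 that have a window. The longer TCACGTGA, which contains the box, was in 4 of the 37 (10.8%) in 1.12% of the 27025 genes and in 2.32% of the 8998. There was no window for *Asah1*, *Ctsb*, *Ctsh*, *Galns* and *Npc1*. The windows below come from GRCm38.p6, the assembly also called mm10, and are written 5′ to 3′ on the strand of the gene with the box in capitals. The first 4 belong to genes that were lower in si*Vgll3*, and the others to genes between the thresholds, the membrane protein gene *Lamp1* with its 4 boxes among them.
Ctsd, chr7:142387908-142387937, minus strand: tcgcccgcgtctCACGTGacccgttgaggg
Lgmn, chr12:102439124-102439153, minus strand: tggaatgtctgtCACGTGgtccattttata
Naglu, chr11:101070009-101070038, plus strand: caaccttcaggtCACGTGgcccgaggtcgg
Arsa, chr15:89477425-89477452, minus strand: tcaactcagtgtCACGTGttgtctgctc
Glb1, chr9:114401018-114401047, plus strand: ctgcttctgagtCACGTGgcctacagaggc
Mcoln1, chr8:3500462-3500491, plus strand: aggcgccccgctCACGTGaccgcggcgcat
Gla, chrX:134601182-134601244, minus strand: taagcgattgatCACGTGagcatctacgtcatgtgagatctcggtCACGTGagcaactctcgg
Lamp1, chr8:13159088-13159160, plus strand: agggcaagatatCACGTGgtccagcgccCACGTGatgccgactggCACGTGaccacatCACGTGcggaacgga

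The other genes with a box were *Ctsa*, *Ctsf*, *Ctsl* and *Sgsh*. M ranged from −0.81 (*Arsa*) to 0.41 (*Ctsl*) over the 12 genes with a box, with a median of −0.20. Of the 12, 4 were lower, beside 11.4% of all genes with A > 0. The 24 genes that had a window without a box had a median of −0.24, and 4 were lower, beside the same 11.4%. For a box with T before it or A after it, which 10 genes held, the median was −0.30 and 4 were lower. The 26 genes without it had a median of −0.22 and 4 were lower, both beside 11.4% of all genes. The difference between genes with and without a box was not tested. Over all genes with A > 0, the medians for CACGTG were −0.06 with the box and −0.04 without it. The boxes printed for *Ctsd*, *Lgmn*, *Naglu* and *Mcoln1* lie downstream of the first base of the gene in GENCODE.

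Among the proteases, 2 of 12 detected genes were lower (16.7%, beside 11.4% of all genes), *Ctsd* and *Lgmn*, and the median M was −0.20. Each role holds few genes, and differences between roles were not tested. *Ctsd* encodes cathepsin D, the main aspartic protease of the lysosome, and it was the most abundant of the 42 transcripts in siCtrl, with 2226 TPM against 1302 TPM in si*Vgll3*. Its M was −0.77 [−0.78, −0.76], so 58.5% of the siCtrl level was left, and *Cd63* held the first place among the lysosomal genes in si*Vgll3*. *Ctsd* (NCBI gene 13033) lies on the minus strand of chromosome 7 from 142375911 to 142388038 in mm10, and shares 808 exonic bases with the same-strand model Gm49369, which has no row of its own in the count table. *Lgmn*, which encodes the asparagine-specific endopeptidase that cleaves cathepsin precursors into their mature chains, was at 217 TPM with siCtrl and 146 TPM with si*Vgll3*, an M of −0.57 [−0.60, −0.54].

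*Ctsl* stood apart from the other proteases. It encodes cathepsin L, a potent cysteine protease, and was at 410 TPM with siCtrl and 543 TPM with si*Vgll3*, an M of 0.41 [0.40, 0.42], the highest of the 41 genes though short of the threshold. The ratio of *Ctsd* to *Ctsl* TPM within a library was therefore 5.43 with siCtrl and 2.40 with si*Vgll3*, a difference of −1.18 on the log2 scale with a counting interval from −1.20 to −1.17. *Ctsl* (NCBI gene 13039; chromosome 13, 64359337 to 64370890, minus strand) overlaps an antisense gene and a pseudogene in its exons, neither of them with a row in the count table.

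The other cysteine cathepsins lay between the thresholds. *Ctsb*, for the abundant cathepsin B, was at 186 TPM with siCtrl and 185 TPM with si*Vgll3*, and *Ctsk*, for the strongly collagen-degrading cathepsin K, was at 64.4 and 64.6 TPM. Neither differed between the libraries beyond its counting interval, and the M of *Ctsb* was −0.01 from TPM and 0.04 with CPM, a scaling by library totals alone. *Ctsb* shares 774 exonic bases with *Fdft1* on the other strand, which had 18748 reads with siCtrl and 10582 with si*Vgll3*. The aminopeptidase gene *Ctsh* (129 and 118 TPM) and the carboxypeptidase gene *Ctsz* (321 and 285 TPM) had M of −0.13 and −0.17. Scarcer transcripts were those of *Ctsf* (9.34 and 8.95 TPM), of *Ctsc*, which encodes the dipeptidyl peptidase that activates granule proteases (8.61 and 6.64 TPM), and of *Ctso* (10.9 and 7.76 TPM). Of the 8 detected cysteine cathepsin genes, 0 were lower, beside 11.4% of all genes, and the median M was −0.09. *Ctss*, the cathepsin of antigen-presenting cells, had 0 reads in each library, which allows up to 3 reads.

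Of the serine proteases, *Ctsa*, for the carboxypeptidase that also protects other hydrolases, was at 130 TPM with siCtrl and 110 TPM with si*Vgll3*. *Tpp1*, for the tripeptidyl peptidase that is lost in a neuronal ceroid lipofuscinosis, was at 82.4 and 68.4 TPM. M was −0.24 [−0.26, −0.21] and −0.27 [−0.30, −0.24], so these genes lay near the median of the 41.

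**Figure D3:**
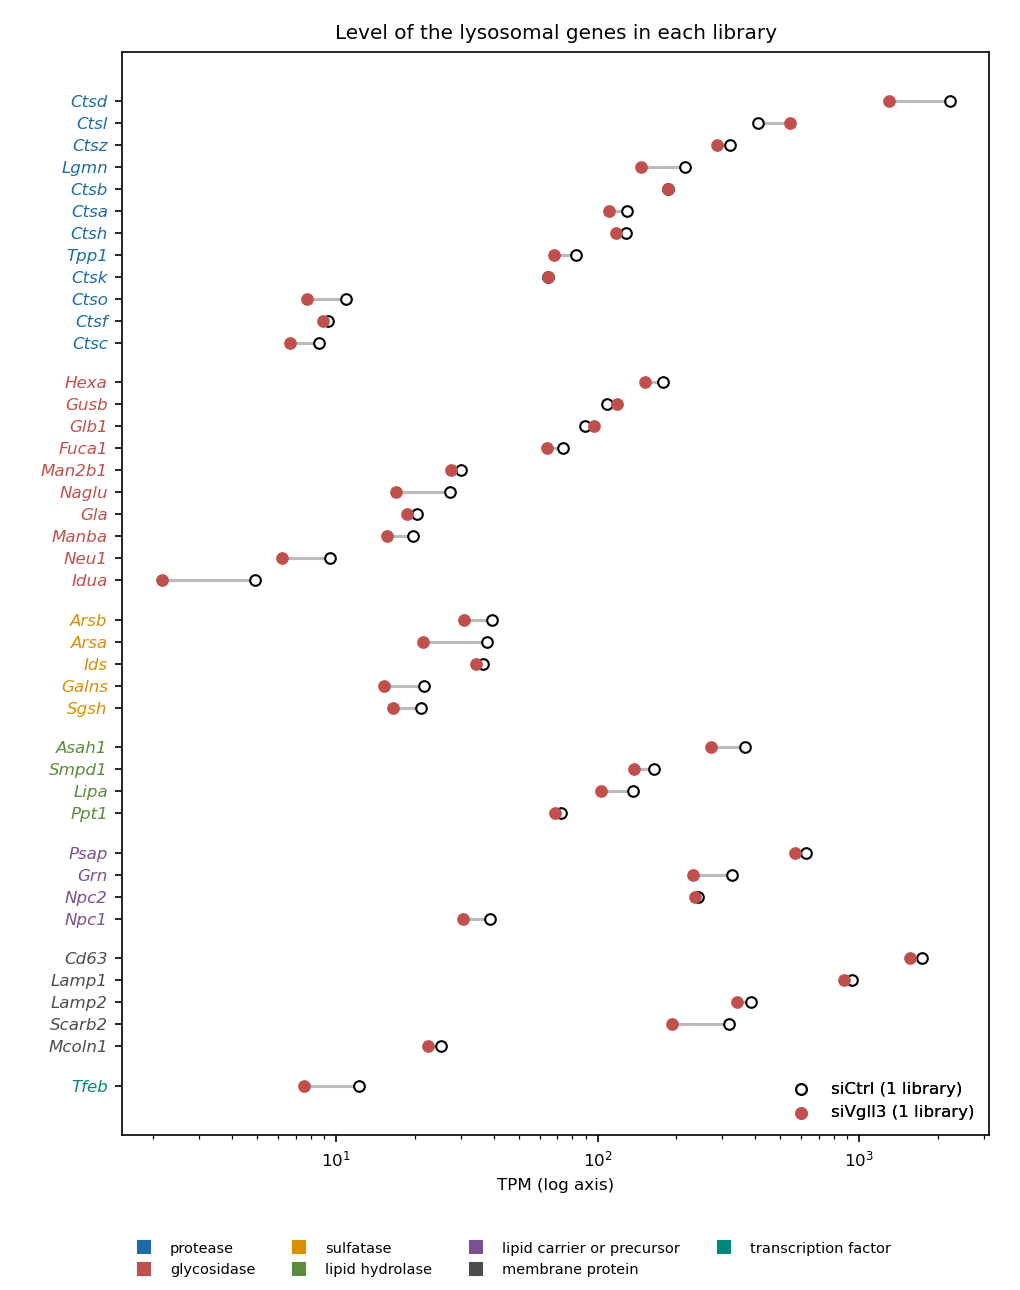
TPM (x axis, log scale) of the 41 detected lysosomal genes in siCtrl (open circles) and siVgll3 (filled circles), 1 library each, by role and by siCtrl level. Ctsd, Cd63 and Lamp1 have the highest levels in both libraries, and the widest gaps on the log scale are those of Idua, Arsa and Ctsd.

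Of the 10 glycosidase genes, 3 were lower (30%, beside 11.4% of all genes), *Idua*, *Naglu* and *Neu1*, and the median M was −0.22. *Idua* encodes α-L-iduronidase, which removes iduronic acid from heparan and dermatan sulfate, and was the scarcest of the detected genes, with 4.88 TPM with siCtrl and 2.16 TPM with si*Vgll3*. Its M of −1.18 [−1.32, −1.04] was the lowest of the 41 and rested on 1380 reads with siCtrl and 565 with si*Vgll3*. In exons, *Idua* (NCBI gene 15932; chromosome 5, 108660331 to 108684557, plus strand) shares 124 bases with *Dgkq* and 141 bases with *Slc26a1* on the other strand, and these genes had 1243 and 43 reads in siCtrl and 980 and 45 in si*Vgll3*.

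*Naglu*, for the enzyme that removes N-acetylglucosamine from heparan sulfate, was at 27.2 TPM with siCtrl and 16.9 TPM with si*Vgll3*, an M of −0.68 [−0.75, −0.61]. *Neu1*, for the lysosomal sialidase, was at 9.51 and 6.20 TPM, an M of −0.62 [−0.71, −0.52]. Both genes had no other gene in their exons, and for both the whole interval lay past the threshold.

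NEU1 is stable only in a complex with β-galactosidase and the carboxypeptidase encoded by *Ctsa*. The β-galactosidase gene *Glb1* was at 89.8 TPM with siCtrl and 97.2 TPM with si*Vgll3*, an M of 0.11 [0.08, 0.15]; it shares 165 exonic bases with *Tmppe* on the same strand. The transcripts of the complex thus differed in direction, and the ratio of *Neu1* to *Glb1* TPM was 0.106 with siCtrl and 0.0638 with si*Vgll3*, a log2 difference of −0.73 with an interval from −0.83 to −0.63. *Gusb*, for β-glucuronidase, was the only other glycosidase gene above 0, with 108 and 119 TPM and an M of 0.14 [0.10, 0.17].

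The remaining glycosidase genes lay between −0.33 and −0.12. *Hexa*, for the α subunit of the hexosaminidase that degrades GM2 ganglioside, was the most abundant glycosidase transcript at 178 and 152 TPM. *Fuca1* (α-fucosidase) was at 73.8 and 63.9 TPM, and *Man2b1* (α-mannosidase) at 30.0 and 27.5 TPM. *Gla*, for the α-galactosidase that is missing in Fabry disease, was at 20.4 and 18.7 TPM, and *Manba* (β-mannosidase) was at 19.8 and 15.7 TPM.

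All 5 sulfatase genes had M below 0, beside 57% of all genes, and *Arsa* and *Galns* were lower (40%, beside 11.4%). *Arsa* encodes arylsulfatase A, which removes sulfate from sulfatide, and was at 37.7 TPM with siCtrl and 21.5 TPM with si*Vgll3*. Its M was −0.81 [−0.86, −0.76], the second lowest of the 41 genes. An antisense transcript on the other strand, C230037L18Rik, shares 690 exonic bases with *Arsa* and had 13 reads with siCtrl and 7 with si*Vgll3*. *Galns*, for the sulfatase of keratan sulfate and chondroitin 6-sulfate, was at 21.6 and 15.3 TPM, and its interval from −0.58 to −0.43 held the threshold. With CPM in place of TPM, *Galns* had an M of −0.45 and was no longer counted as lower.

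*Sgsh* (heparan N-sulfatase) was at 21.2 TPM with siCtrl and 16.4 TPM with si*Vgll3*, and *Arsb* (arylsulfatase B, which acts on dermatan sulfate) at 39.4 and 31.0 TPM. Their M was −0.37 and −0.35. *Ids*, for the iduronate sulfatase that acts just before IDUA on the same chains, was at 36.3 and 34.4 TPM, an M of −0.08 [−0.12, −0.04]. The *Idua* to *Ids* ratio was 0.134 with siCtrl and 0.0626 with si*Vgll3*, a log2 difference of −1.10 with an interval from −1.25 to −0.95.

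The 4 lipid hydrolase genes all had M below 0, with a median of −0.33, and 0 were lower. Over all genes, 57% had M below 0 and 11.4% were lower. *Asah1*, for the acid ceramidase that turns ceramide into sphingosine, was the most abundant at 365 TPM with siCtrl and 272 TPM with si*Vgll3*, an M of −0.42 [−0.44, −0.40]. *Lipa*, for the acid lipase that frees cholesterol and fatty acids from lipoprotein lipids, was at 136 and 103 TPM, an M of −0.40 [−0.43, −0.37]. *Smpd1* (acid sphingomyelinase) was at 165 and 138 TPM and *Ppt1* (palmitoyl-protein thioesterase) at 72.5 and 68.8 TPM. *Ppt1* shares 129 exonic bases with the far more abundant *Cap1* on the other strand.

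Of the genes for precursors and lipid carriers, *Grn* came closest to the threshold. *Grn* encodes progranulin, which is secreted and also cut into granulins in lysosomes, and was at 326 TPM with siCtrl and 232 TPM with si*Vgll3*, an M of −0.49 [−0.51, −0.47]. *Psap*, for the precursor of the saposins that present sphingolipids to their hydrolases, was at 625 and 570 TPM, an M of −0.13 [−0.15, −0.12]. The cholesterol exporters NPC1 and NPC2 act one after the other. *Npc1* was at 38.8 and 30.7 TPM, an M of −0.34 [−0.38, −0.30], while *Npc2* was at 243 and 236 TPM with an M of −0.04, which turned to 0.01 with CPM.

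Of the 5 membrane protein genes, *Scarb2* was the only one that was lower (20%, beside 11.4% of all genes). *Scarb2* encodes LIMP-2, a membrane protein that also acts as a sorting receptor, and was at 317 TPM with siCtrl and 192 TPM with si*Vgll3*, an M of −0.72 [−0.74, −0.71]. *Scarb2* (NCBI gene 12492; chromosome 5, 92441314 to 92506833, minus strand) has no other gene in its exons.

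The genes of the main structural glycoproteins of the lysosomal membrane differed little between the libraries. *Lamp1* was at 936 TPM with siCtrl and 877 TPM with si*Vgll3*, an M of −0.09 [−0.10, −0.08], and its promoter window, printed above, held more boxes than that of any other listed gene. *Lamp2*, which is also needed for autophagosome fusion, was at 384 and 341 TPM, and the tetraspanin gene *Cd63*, whose product is shared with exosomes, at 1741 and 1564 TPM. *Mcoln1*, for the calcium channel mucolipin-1 and itself a known TFEB target, was at 25.2 and 22.4 TPM, an M of −0.17 [−0.24, −0.09]. Relative to *Lamp1*, *Scarb2* was lower by −0.63 on the log2 scale, with an interval from −0.65 to −0.61, and *Lamp2* by −0.08.

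To set these genes beside the rest of the lysosomal system, 6 further lists with 148 genes were read in the same way. Of their 120 genes with A > 0, 10 were lower (8.33%), 2 were higher, 90 had M below 0 (75.0%), and the median M was −0.14, beside 11.4% lower, 5.73% higher, 57% below 0 and a median of −0.05 over all genes. For the main list of 41 genes these values were 22.0% lower, 0 higher, 90.2% below 0 and −0.24.

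**Figure D4:**
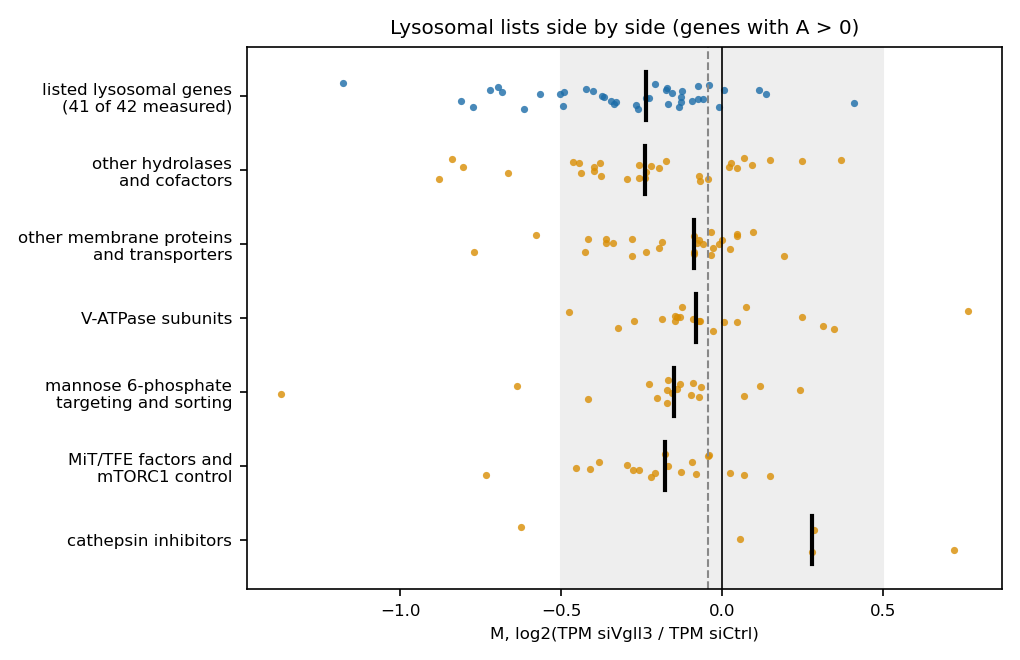
M (x axis, log2 ratio) of each gene with A > 0 in the 42-gene list (blue) and in 6 other lysosomal lists (orange); black bars are medians, the dashed line is the median of all genes at −0.05, the grey band spans M from −0.5 to 0.5, and the vertical scatter within a list has no meaning. The medians lie at −0.24 for the listed genes and the other hydrolases and closer to 0 for the V-ATPase and the other membrane proteins. The median of 0.28 for the list of cathepsin inhibitors rests on 5 genes and is the M of Serpinb9.

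The other soluble hydrolases and their cofactors had a median of −0.24 over 30 genes, close to that of the main list. Of these, 4 were lower (13.3%), beside 22.0% of the main list and 11.4% of all genes. M was below 0 for 73.3% of them, beside 90.2% of the main list and 57% of all genes. *Scpep1*, a serine carboxypeptidase gene, was at 200 TPM with siCtrl and 152 TPM with si*Vgll3*. The lowest M were those of *Hyal1* (hyaluronidase; 4.83 and 2.62 TPM, M −0.88), *Dnase2a* (acid DNase; 14.9 and 8.34 TPM, M −0.84) and *Smpdl3a* (a phosphodiesterase; 30.5 and 17.5 TPM, M −0.81). The fourth was the acid phosphatase gene *Acp2*, with an M of −0.67.

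Other lysosomal membrane proteins and transporters had a median of −0.09 over 28 genes, with 2 lower (7.14%, beside 11.4% of all genes). These were the chloride transporter gene *Clcn6* (6.54 and 3.83 TPM, M −0.77) and the amino acid transporter gene *Slc36a1* (13.4 and 8.98 TPM, M −0.58). The most abundant genes of that list were *Laptm4a* at 644 and 665 TPM, *Tspan3* at 272 and 261 TPM and *Cd164* at 269 and 263 TPM. Subunits of the V-ATPase, the proton pump that acidifies the lysosome, had a median of −0.08 over 20 genes, and 0 were lower, beside 11.4% of all genes. Its most abundant subunits were *Atp6v0c* at 357 and 350 TPM, *Atp6v0e* at 301 and 374 TPM and *Atp6ap1* at 242 and 222 TPM. The 1 subunit gene counted as higher, *Atp6v0a4*, was scarce at 0.949 and 1.61 TPM.

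Among 18 genes of mannose 6-phosphate targeting and sorting, 2 were lower (11.1%, beside 11.4% of all genes) and the median was −0.15. *Vps26a*, for a subunit of the retromer that returns sorting receptors to the Golgi, was at 74.6 TPM with siCtrl and 28.9 TPM with si*Vgll3*, an M of −1.37 [−1.42, −1.32], while its partner genes *Vps29* (M −0.10) and *Vps35* (M −0.07) were near 0. *Gnptg*, for a subunit of the enzyme that starts the mannose 6-phosphate tag, was at 15.9 and 10.2 TPM, an M of −0.64 [−0.77, −0.50]. The most abundant were *Cltc* (clathrin heavy chain) at 304 and 276 TPM, *Ap1s1* at 228 and 269 TPM and *Vps35* at 174 and 166 TPM.

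A further list held relatives of *Tfeb*, other transcriptional regulators and genes that act for or against mTORC1, which holds TFEB in the cytoplasm. Its median was −0.18 over 19 genes, with 1 lower (5.26%, beside 11.4% of all genes). That gene was *Mitf* (2.24 TPM with siCtrl and 1.35 TPM with si*Vgll3*, M −0.73 [−0.92, −0.55]). The more abundant *Tfe3* was at 47.6 and 40.8 TPM, an M of −0.22. The most abundant genes of the list were *Lamtor1* at 229 and 198 TPM, *Rheb* at 159 and 177 TPM and *Lamtor2* at 135 and 142 TPM.

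The list of cathepsin inhibitors holds cystatins and serpins, and its 5 genes with A > 0 lay on both sides of 0. Which of them act on the cathepsins described above was not examined. *Cst3*, for the secreted inhibitor cystatin C, was at 1544 TPM with siCtrl and 1000 TPM with si*Vgll3*, an M of −0.63 [−0.64, −0.61], and was lower. The other 4 with A > 0 had M above 0, the cytoplasmic *Cstb* at 417 and 433 TPM, *Serpinb6a* at 452 and 551 TPM, *Serpinb9* at 87.7 and 106 TPM and the scarce *Cst6*, which was higher with an M of 0.72. The ratio of *Ctsl* to *Cst3* TPM was 0.265 with siCtrl and 0.544 with si*Vgll3*, a log2 difference of 1.03 with an interval from 1.01 to 1.06.

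Markers of other cells differed between the libraries too. *Lyz2*, for lysozyme of myeloid cells, was at 10.9 TPM with siCtrl and 3.14 TPM with si*Vgll3*, *Cd53* was at 0.760 and 5.91 TPM and *Cd14* at 1.53 and 2.35 TPM. Of 8 endothelial markers, 4 had a mean TPM above 1 and the whole list summed to 27.3 and 24.0 TPM, with *Tek* at 19.5 and 13.4 TPM, *Emcn* at 2.72 and 2.68 TPM and *Cdh5* at 2.13 and 3.01 TPM. Of 8 cardiomyocyte markers, 5 had 0 reads in both libraries, while *Tnnt2* was at 60.1 and 10.4 TPM. The part of these differences in the values of the lysosomal genes was not tested. Bulk RNA cannot tell fewer cells of a type from less RNA per cell.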

How the data were processed

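1 siCtrl and 1 si*Vgll3* library, made with the TruSeq Stranded mRNA kit, were sequenced on an Illumina NovaSeq instrument. Per the labels and the study's methods, the authors used FastQC for quality control, Trimmomatic for trimming, HISAT2 for mapping to mm10, and StringTie for known genes and transcripts. Tool versions, the annotation release and the strand setting of the counting are not given in the sources used here, so reads of overlapping genes on opposite strands cannot be told apart. The authors deposited raw read counts per gene, which are not normalised, and TPM, which they normalised by the length of the gene and the depth of the library.

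Of 24532 genes, 14158 had TPM, 14149 had M and 11754 had A > 0. M and A were computed from TPM with nothing added. Counting intervals (scipy 1.17.1) were computed on the read ratio, conditional on the sum, and shifted onto the TPM ratio. They were checked on counts simulated with counting error alone, a check of the calculation that cannot show the spread between cultures. Intervals of ratios between 2 genes are normal approximations on the log scale from the 4 read counts. A count of 0 allows up to 3 reads. With 1 library per group no model was fitted, and edgeR 4.0.16 and DESeq2 1.42.0 were used for scaling only. Positions and overlaps came from GENCODE vM21 and promoter windows from RefSeq.

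The members and lists were chosen with earlier results of these data known, and the 6 further lists were written from textbook knowledge. All 42 members are named. Of each further list, the rule names the 3 genes with the largest mean TPM and, past either threshold, at most the 3 lowest and 3 highest. Of marker lists it names the 3 with the largest mean TPM. Genes named outside it (*Acp2*, *Vps29*, *Tfe3*, *Serpinb9*, the overlapping genes, and among the markers *Acta2*, *Postn*, *Thy1*, *Ptprc*, *Adgre1* and *Itgam*) were chosen after their values were seen. Some genes that the rule names are not reported here. Alternatives were CPM, TMM or DESeq2 scaling, 0.1 or 1 TPM added, A > 2, no filter on A, at least 10 reads in each library, centred M, a threshold of 1 and whole intervals past 0.5.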

Additional observations from a re-analysis of the deposited data

How the results depend on the processing

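No paired analysis was possible because siCtrl and si*Vgll3* were sequenced as 1 library each. Of the 9 lower genes, 8 had M < −0.5 under every scaling, pseudocount and filter that gave them a value, with *Idua* left out at A > 2 since its A is 1.81. *Galns* was the exception, at −0.45 with CPM. The number of lower genes was 8 or 9 under all alternatives except a threshold of 1, which left 1 of 41, *Idua*. Over all genes, 3.27% were lower at a threshold of 1. Under the other alternatives that share ran from 8.19% (1 TPM added) to 14.9% (no filter on A). The number of higher genes was 0 throughout, beside 1.76% (threshold of 1) to 10.1% (no filter on A) of all genes. The median M was −0.20 with CPM (−0.196) and −0.19 once the median of all genes was subtracted (−0.191), and the median of all genes moved by at most 0.05. *Ctsb* and *Npc2* had M above 0 under CPM, TMM scaling and centring (*Ctsb* also with DESeq2's size factors), and the other listed genes kept their sign. For the 6 further lists together, a threshold of 1 gave 1 lower and 0 higher, beside 3.27% and 1.76% of all genes. The number of higher genes in them was 1 with 1 TPM added or with A > 2, and 5 with no filter on A or with at least 10 reads in each library. In that order, 4.32%, 3.95%, 10.1% and 8.59% of all genes were higher. Of 132 counts for the separate lists under the alternatives, 23 moved by over 1.5 times or to or from 0. Depth limited little here, since counting error was small beside most differences, but the spread between cultures is unknown.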

Other observations

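*Rnaset2a* and *Rnaset2b*, near-identical copies of the gene for the lysosomal ribonuclease RNase T2, had 7000 and 6996 reads in siCtrl and 5481 and 5506 in si*Vgll3*, but 114 and 0.311 TPM in siCtrl. Their M was −0.24 and 1.00. *Rnaset2b* was outside the counts above because its A was below 0. Reads that the copies share cannot be told apart, and the values of both are uncertain. They were named after their values were seen.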
